A study of Mus musculus with 15 samples.

Results

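The genes described here are 10 of the 39179 mouse genes counted in the tables: Saa3, Lcn2, Ltf, Slpi, Wfdc18, Wfdc2, S100a8, S100a9, Chil3 and Ubd. They encode acute phase and antimicrobial proteins and were chosen by their own CPM and read counts in these data: near absence in 1 group of irradiated salivary glands (IR+GFP) and high levels in another (IR+Gli1). Those 2 groups therefore only describe the genes, and the genes were tested only in comparisons that use neither of them. The model behind these tests was fitted to all 5 groups, so its estimate of the spread drew on those 2 groups as well. The label held for 7 of the 10 genes: Saa3, Slpi, S100a8, S100a9, Chil3 and Ubd had 0 reads in all 3 IR+GFP libraries and Ltf had 1 to 3. It did not hold for Lcn2, Wfdc18 and Wfdc2, which had 448 to 1556 reads per IR+GFP library. Ubd also stands apart from the label by function, since its protein acts inside the cell.

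The study sequenced RNA of the submandibular gland (SMG), a major salivary gland, from adult male C57BL/6 mice, and compared irradiated glands with and without a transient activation of the Hedgehog pathway. NT were non-treated wild type mice, and IR were wild type mice whose glands were taken 7 days after local irradiation. IR+GFP, IR+Gli1 and IR+Shh were irradiated in the same way, taken at 7 days, and had in addition received a gene transferred into the gland: GFP (green fluorescent protein, the transfer control), Gli1 (a transcription factor at the end of the Hedgehog pathway) or Shh (Sonic hedgehog, its ligand). The vector, the species of the transferred genes, the radiation dose and the age beyond adult are not given in the sources used here. There were 3 libraries per group.

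Acute phase proteins are made in large amounts when cytokines such as interleukin-1, interleukin-6 and tumour necrosis factor reach the liver or an epithelium, mostly through the transcription factors NF-kB, C/EBP and STAT3. Mucosal glands use the same signals to release proteins that starve microbes of iron, zinc or manganese, bind their walls or inhibit proteases, and saliva carries several of them. Some of these proteins are also stored in the granules or cytosol of neutrophils, so in a whole gland they can come from epithelium or from white blood cells.

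In each of the 5 groups, 2 of the 3 libraries were near-identical. Their mean chi-square per gene was 0.215 to 0.337, against 22.0 to 223 in the other 10 pairs of libraries. Separate draws of reads from 1 library would give about 1. In the near-identical pairs 1 to 5 genes had more reads in the smaller library, against 1477 to 9279 in the other pairs. Their agreement was thus closer than sampling noise allows, and whether they share reads was not tested. Each such pair was counted as 1 sample, so n was 2 per group and 10 in all. Nothing in the labels says that the libraries came from separate animals, so a p-value here speaks only of the scatter among these samples, which may be technical. Gene reads per library ran from 18205941 to 41064723. The Gli1 gene itself had 0.661 ± 0.151 CPM (counts per 1000000 gene reads after TMM scaling, edgeR's correction for composition; SD, n = 2) in IR+GFP, 0.606 ± 0.0927 in IR+Gli1 and 3.46 ± 1.10 in IR+Shh, and Shh had 0 reads in every library, so mouse Gli1 and Shh reads did not show the transfer and groups are named by their labels. TMM factors were 1.72 and 1.31 in the IR+Gli1 samples and 0.865 to 0.994 in the others. Scaling by total gene reads in place of TMM moved the median log2 difference of all genes between IR+Gli1 and IR+GFP from 0.01 to 0.78, and a fold change on both scales is given where it matters.

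The sequence just upstream of 4 genes with the bulk of their reads in IR+Gli1 is shown first, since this is the pattern by which the genes were chosen. Letters are RefSeq's for build GRCm38.p6, written 5′ to 3′ on the gene's strand from 150 bases before the RefSeq start, without bases annotated as exon. Capitals mark matches on either strand to 4 motifs: NF-kB (GGG and CC with any 5 bases between), C/EBP (TTNNGNAA), the STAT element GAS (TTCNNNGAA) and the interferon element ISRE (GAAA and GAAA with any 2 bases between).
Saa3, chr7:46715701-46715826, minus strand: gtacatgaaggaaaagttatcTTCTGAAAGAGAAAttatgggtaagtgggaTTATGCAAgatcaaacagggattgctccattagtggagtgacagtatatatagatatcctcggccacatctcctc
Ltf, chr9:111019142-111019270, plus strand: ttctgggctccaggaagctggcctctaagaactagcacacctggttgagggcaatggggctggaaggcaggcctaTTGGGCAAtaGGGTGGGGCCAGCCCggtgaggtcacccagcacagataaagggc
Chil3, chr3:106167565-106167714, minus strand: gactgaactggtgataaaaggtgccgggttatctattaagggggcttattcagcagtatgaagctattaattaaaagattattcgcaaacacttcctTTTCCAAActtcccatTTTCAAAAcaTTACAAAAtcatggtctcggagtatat
Ubd, chr17:37193742-37193891, plus strand: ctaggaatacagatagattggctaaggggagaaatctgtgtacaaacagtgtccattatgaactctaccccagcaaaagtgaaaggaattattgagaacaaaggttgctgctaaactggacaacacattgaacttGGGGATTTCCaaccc
In Saa3 the capitals are a C/EBP match overlapping the ISRE match, then a second C/EBP match. In Ltf they are a C/EBP match and 3 overlapping NF-kB matches, in Chil3 they are 3 C/EBP matches, and in Ubd they are 1 NF-kB match that begins 15 bases before the start.

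Over the full 300 bases of each promoter (250 before and 50 after the start), NF-kB letters matched in 5 of the 10 genes (Lcn2, Wfdc2, Chil3, Ltf and Ubd), and in 50.8% of the 32851 mouse promoters searched. The windows of Lcn2, Wfdc2 and Slpi lay inside the annotated genes. Of the 150 bases before the RefSeq start, 150 in Lcn2, 136 in Wfdc2 and 93 in S100a8 were left out for annotated exons, and 0 in Slpi. The NF-kB match of Lcn2 and both the NF-kB and C/EBP matches of Wfdc2 fell in those left-out stretches. C/EBP letters matched in 8 of 10, all but Wfdc18 and Ubd, against 40.7% of promoters. Saa3 held 4 C/EBP matches and the only ISRE match among the 10 (3.44% of promoters), and Chil3 held the only GAS match (8.30% of promoters). The Wfdc18 promoter held no match to any of the 4 motifs. The plot of motif matches shows their places. A match is a description of letters, not of binding.

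**Figure D1:**
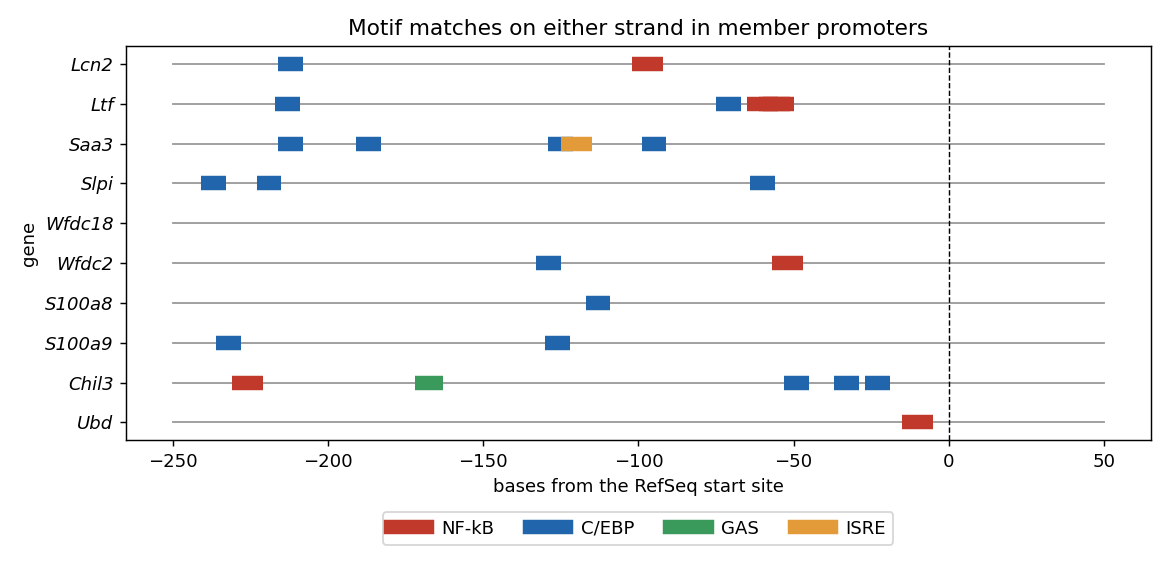
Matches to 4 motifs on either strand (coloured bars) by distance in bases from the RefSeq start site (dashed line) in the 300-base promoters of the 10 genes. C/EBP matches lie in 8 of the 10 promoters and NF-kB matches in 5, while Wfdc18 has none. The windows of Lcn2, Wfdc2 and Slpi lie inside the annotated genes.

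Summed, the 10 genes took a much larger part of the reads in IR+Gli1 than elsewhere. They held 0.377%, 0.377% and 0.153% of all gene reads in the 3 IR+Gli1 libraries. In IR+GFP they held 0.0105% to 0.0107%, in IR 0.0118% to 0.0156%, in IR+Shh 0.0108% to 0.0143% and in NT 0.0189% to 0.0493%. These shares are of total gene reads, without TMM scaling. Lcn2, Wfdc18 and Wfdc2 gave most of them in every group. In the merged IR+Gli1 pair they had 59906, 35810 and 12750 reads, and Ltf, the next, had 7928. In a bulk gland, more cells of a type and more RNA per cell cannot be told apart. Below, values are CPM in the 2 samples of each group, with the merged pair of libraries first, and the plot of levels by sample shows them all. A ratio between groups is that of the summed reads of all samples of each group over their summed TMM-scaled library sizes, so it can differ from the ratio of the group means.

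**Figure D2:**
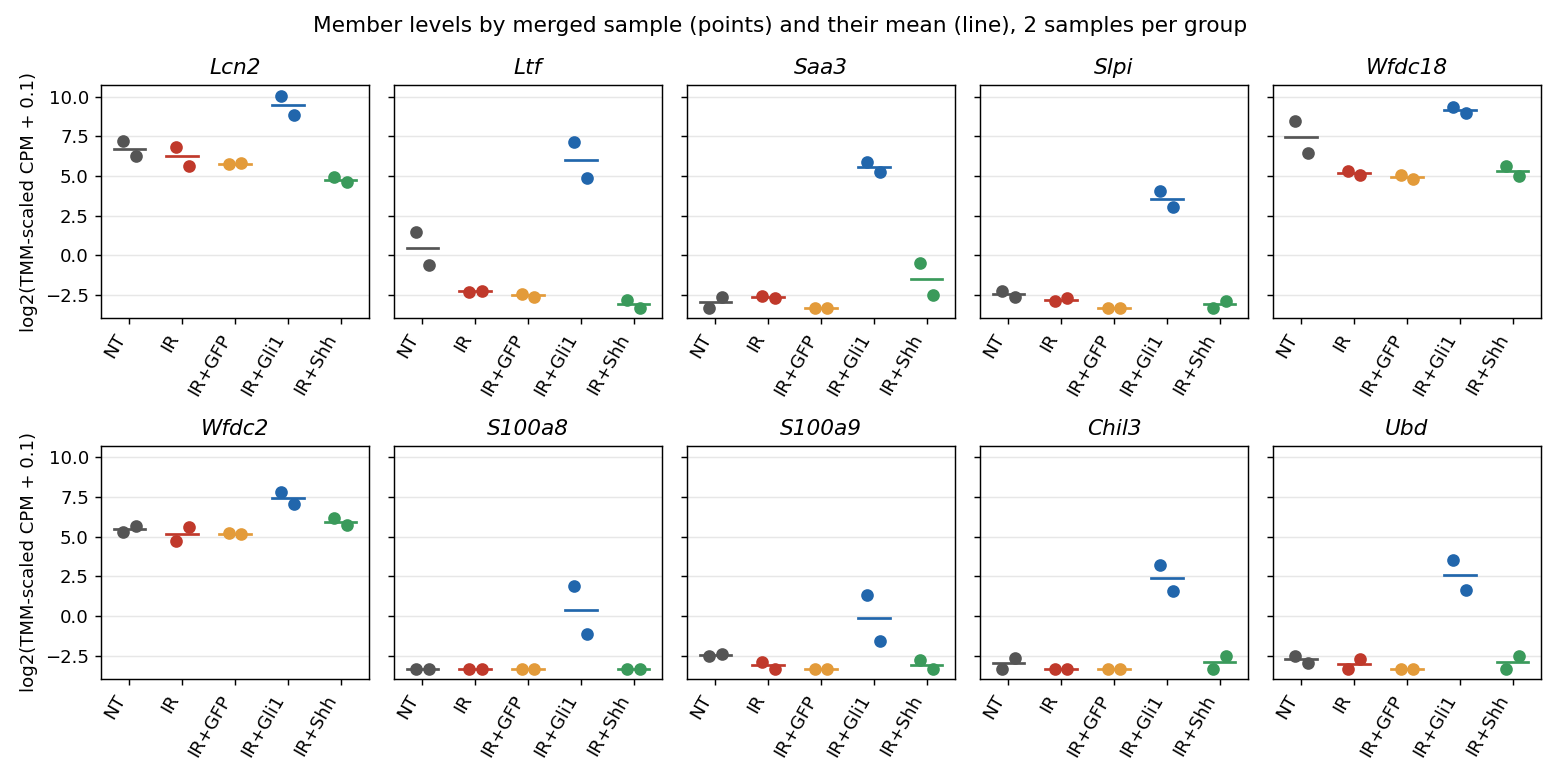
Level of each of the 10 genes as log2(TMM-scaled CPM + 0.1) in the 10 samples (points) with the group mean (line), 2 samples per group. Both IR+Gli1 samples lie above all 8 others for every gene, and Lcn2, Wfdc18 and Wfdc2 lie well above 0 in all groups.

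Saa3 (Ensembl ENSMUSG00000040026, chr7:46711998-46715700, minus strand) encodes a serum amyloid A that is made outside the liver. It stood at 0 and 0.0607 CPM in NT, 0.0680 and 0.0541 in IR, 0 and 0 in IR+GFP, 57.6 and 38.4 in IR+Gli1, and 0.607 and 0.0737 in IR+Shh. Outside IR+Gli1 the merged IR+Shh pair was thus the highest sample, with 18 and 10 reads in its libraries against 0 to 3 in the libraries of NT, IR, IR+GFP and the other IR+Shh library. Taking 3 reads for the whole IR+GFP group as a floor, Saa3 was at least 683-fold higher in IR+Gli1 (at least 1223-fold by total reads). Its ratio of IR+Gli1 to IR+Shh was 162, with a 95% interval of 99.6 to 284. Such intervals and floors cover counting error only.

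Lcn2 and Ltf both withhold iron: lipocalin 2 binds the siderophores with which bacteria collect iron, and lactotransferrin binds iron itself. Lcn2 (ENSMUSG00000026822, chr2:32384633-32388252, minus strand) stood at 149 and 75.1 CPM in NT, 113 and 50.5 in IR, 53.4 and 56.0 in IR+GFP, 1079 and 456 in IR+Gli1, and 30.3 and 24.3 in IR+Shh. It was therefore present in every gland, and both IR+Shh samples lay below the other 8. The order of its means was IR+Gli1, NT, IR, IR+GFP and IR+Shh, and neither NT and IR nor IR and IR+GFP were separated by their samples. Its mean in IR+Gli1 was 767 ± 441 CPM (SD, n = 2). Its ratio of IR+Gli1 to IR+GFP was 16.2 over summed reads, with a counting interval of 15.6 to 17.0, and 29.1 by total reads.

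Ltf (ENSMUSG00000032496, chr9:111019271-111042767, plus strand) stood at 2.72 and 0.546 CPM in NT, 0.102 and 0.108 in IR, 0.0853 and 0.0615 in IR+GFP, 143 and 29.6 in IR+Gli1, and 0.0433 and 0 in IR+Shh. Outside IR+Gli1, its reads were mostly in NT, with 18, 90 and 59 in the libraries, against 0 to 4 in each library of IR, IR+GFP and IR+Shh. The 8678 reads of the 2 IR+Gli1 samples stood against 3 in IR+GFP, a ratio of 1421 with a counting interval of 486 to 6892. Against NT the ratio was 70.3, with an interval of 57.2 to 87.3.

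Slpi, Wfdc18 and Wfdc2 carry the WAP four-disulfide fold of small secreted protease inhibitors. Slpi, an inhibitor of serine proteases such as neutrophil elastase (ENSMUSG00000017002, chr2:164354070-164389095, minus strand), stood at 0.110 and 0.0607 CPM in NT, 0.0340 and 0.0541 in IR, 0 and 0 in IR+GFP, 16.3 and 8.14 in IR+Gli1, and 0 and 0.0369 in IR+Shh. With at most 3 reads in any library outside IR+Gli1, it was at least 182-fold higher in IR+Gli1 than in IR+GFP. Wfdc18 (ENSMUSG00000000983, chr11:83709015-83711348, plus strand) stood at 351 and 88.0 CPM in NT, 39.8 and 32.7 in IR, 32.8 and 27.6 in IR+GFP, 645 and 497 in IR+Gli1, and 48.9 and 31.7 in IR+Shh. Its NT samples lay between those of IR+Gli1 and of all other groups, and IR, IR+GFP and IR+Shh overlapped in turn. The ratio of IR+Gli1 to IR+GFP was 19.5 (interval 18.4 to 20.7), and that to NT was 2.89 (2.84 to 2.95).

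Wfdc2, which is best known as the tumour marker HE4 (ENSMUSG00000017723, chr2:164562413-164568510, plus strand), stood at 39.2 and 50.7 CPM in NT, 25.9 and 48.9 in IR, 36.9 and 35.4 in IR+GFP, 230 and 134 in IR+Gli1, and 71.0 and 52.4 in IR+Shh. Its IR+Shh samples lay above all of NT, IR and IR+GFP and below IR+Gli1, while NT and IR overlapped and IR+GFP lay within the range of IR. Its ratio of IR+Gli1 to IR+GFP, 5.50 (interval 5.21 to 5.80), was the smallest of the 10 genes.

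S100a8 and S100a9 encode the 2 subunits of calprotectin, which binds zinc and manganese and is abundant in neutrophils. S100a8 (ENSMUSG00000056054, chr3:90668978-90670035, plus strand) had 236, 158 and 9 reads in the IR+Gli1 libraries and 0 or 1 in each of the other 12. S100a9 (ENSMUSG00000056071, chr3:90692632-90695721, minus strand) had 157, 107 and 6 reads in IR+Gli1 and at most 3 in any other library. In CPM, S100a8 stood at 3.55 and 0.356 in the IR+Gli1 samples and S100a9 at 2.38 and 0.237, and both were at 0 in IR+GFP. The folds over the IR+GFP floor were at least 33.7 for S100a8 and at least 22.6 for S100a9, and most of each value came from 1 of the 2 IR+Gli1 samples. S100a9 did not pass the filter on low counts and has no fitted value.

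Chil3 encodes a chitinase-like lectin without chitinase activity (Ym1) that mouse macrophages release. It (ENSMUSG00000040809, chr3:106147554-106167564, minus strand) stood at 9.37 and 2.92 CPM in IR+Gli1, and its libraries in the other 4 groups had 0 to 2 reads, which makes it at least 97.3-fold higher than in IR+GFP. Chil3 has close paralogs, and reads with several alignments were not counted, so its level is uncertain. Ubd encodes FAT10, a ubiquitin-like modifier that inflammatory cytokines induce and that sends proteins to the proteasome. Ubd (ENSMUSG00000035186, chr17:37193892-37196095, plus strand) stood at 11.7 and 3.04 CPM in IR+Gli1, with 0 to 2 reads per library elsewhere, and was at least 119-fold higher than in IR+GFP.

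Per kilobase of exon, which allows genes to be compared, Wfdc18 had the highest mean level in IR+Gli1, at 468 ± 85.6 CPM per kb (SD, n = 2), before Lcn2 at 293 ± 168 and Wfdc2 at 159 ± 59.6. Ltf followed at 25.0 ± 23.2 and Saa3 at 18.4 ± 5.22. The last 5 were Slpi at 10.4 ± 4.90, Ubd at 7.92 ± 6.58, Chil3 at 3.77 ± 2.79, S100a8 at 2.81 ± 3.25 and S100a9 at 2.50 ± 2.90 CPM per kb. The SD ranges of neighbours in this order overlapped, except between Wfdc2 and Ltf. The same 3 genes led in all other groups. NT had the order of IR+Gli1, with Wfdc18 first (180 ± 152), while Wfdc2 was first in IR (32.8), IR+GFP (31.7) and IR+Shh (54.1).

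The 2 IR+Gli1 samples differed in these genes. All 10 were higher in the merged pair of libraries 1 and 2 than in library 3, by 1.30-fold for Wfdc18 to 10.03-fold for S100a9, with a median ratio of 2.79. Ltf differed 4.82-fold, Ubd 3.85-fold, Chil3 3.20-fold, Lcn2 2.37-fold and Saa3 1.501-fold. Of the 14158 tested genes with reads in both samples, 52.6% were higher in the merged pair, with a median ratio of 1.02. Library 3 of IR+Gli1 and library 3 of IR+GFP also held more reads with several alignments, 7.53% and 8.22%, against 2.89% to 4.79% in the other 13 libraries. The part of that difference in the levels was not tested. The plot of the 2 IR+Gli1 samples shows every gene above the line of equal levels.

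**Figure D3:**
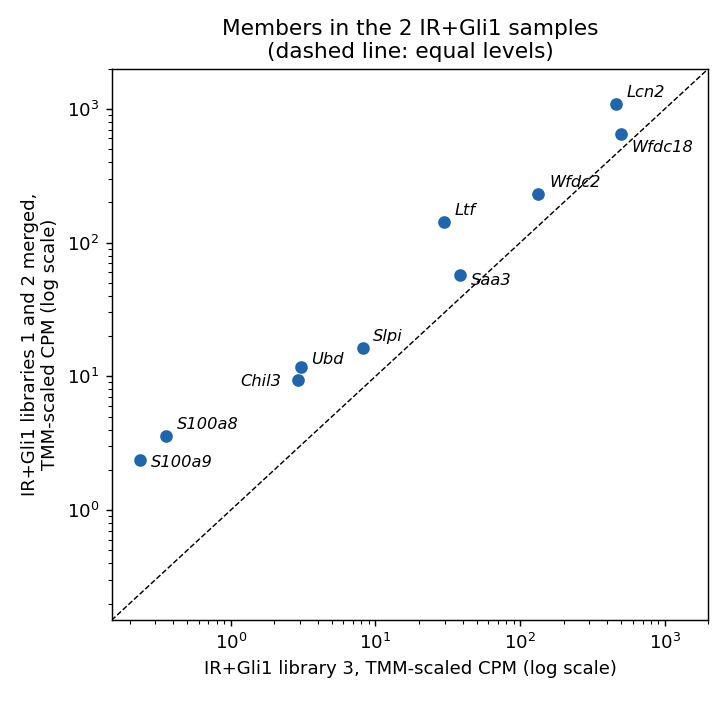
TMM-scaled CPM of the 10 genes in IR+Gli1 library 3 (x axis) and in the merged IR+Gli1 libraries 1 and 2 (y axis), both on log scales, with a dashed line at equal levels. All 10 points lie above the line, S100a8 and S100a9 farthest and Wfdc18 nearest.

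The fitted log2 difference of IR+Gli1 from IR+GFP (edgeR, 14300 genes tested) is given for the 9 genes that passed the filter as a description only. It was 9.39 ± 0.71 (SE) for Saa3, 9.20 ± 1.41 for Ltf, 3.81 ± 0.61 for Lcn2, 4.24 ± 0.68 for Wfdc18 and 2.33 ± 0.37 for Wfdc2. The other 4 values were 4.86 for S100a8, 6.45 for Chil3, 6.71 for Ubd and 7.43 for Slpi. The median of the 9 was 6.45, where the median of all genes was 0.01, and for genes at 0 reads in IR+GFP a fitted value depends on the prior count of 2. The samples of the 2 groups did not overlap for 9 of 9, against 28.9% of all genes that were higher without overlap, and the choice of the genes fixes that count. IR+Shh differed from IR+GFP by a median of 0.41 and from IR+Gli1 by a median of -5.82, and IR+GFP differed from IR by -0.26. These comparisons share samples with each other.

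Irradiation alone was the first comparison that the choice of genes did not use. Of the 9 genes that passed the low-count filter, 5 (Saa3, Slpi, S100a8, Chil3 and Ubd) did so only through IR+Gli1 and had at most 18 reads in any other library, so counts are given here for the other 4: Lcn2, Ltf, Wfdc18 and Wfdc2. None of these 4 passed edgeR's test at an adjusted p under 0.05 in IR against NT, where 0.678% of all genes did. At an unadjusted p under 0.05, 1 of 4 passed, against 17.5% of all genes. Wfdc18 had the smallest p: it was 36.2 ± 5.01 CPM in IR and 219 ± 186 in NT (SD, n = 2 each), 6.04-fold lower, a log2 difference of -2.60 ± 0.63 (SE) with an adjusted p of 0.134. Ltf differed by -3.23 ± 1.67 (adjusted p = 0.383), Lcn2 by -0.45 ± 0.55 (adjusted p = 0.733) and Wfdc2 by -0.27 ± 0.36 (adjusted p = 0.754), by the same edgeR test. In 2 of the 4, Ltf and Wfdc18, both IR samples lay below both NT samples, against 27.3% of all genes. Ltf had 74 and 18 reads in the NT samples and 3 and 2 in IR. Apart from IR+Gli1 it thus passed the filter through NT, which favoured it to lie lower in comparisons against NT.

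The Wfdc18 and Ltf differences leaned on 1 NT sample. The merged NT pair had 3.99 times the Wfdc18, 4.97 times the Ltf and 1.98 times the Lcn2 of the other NT sample, and 0.773 times the Wfdc2. It also held 1631 CPM in summed markers of mucous cells of the sublingual gland, which lies against the submandibular gland, where the other NT sample held 22.3 and the remaining 8 samples 11.5 to 48.0. Muc19, a mucin of those cells, was at 1370 CPM in that pair and 0.243 in the other NT sample. Bpifa2 (1602 against 0.152), Pglyrp1 (130 against 7.40) and Pigr (373 against 75.0), which are secreted defence proteins and the receptor that carries antibodies into saliva, differed the same way, and were named after their values were seen. The part of this tissue in the levels was not tested. Without the merged NT pair, the Wfdc18 difference was -1.28 (adjusted p = 0.149), and without the other NT sample -3.27 (adjusted p = 0.00078), by edgeR.

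Transfer of Shh was the second such comparison. IR received no transferred gene, so IR+Shh and IR differ in the transfer itself as well as in Shh, and these cannot be told apart here. Against IR, none of the 4 genes passed in IR+Shh by edgeR, nor did any of the 14300 genes (0%). At an unadjusted p under 0.05, 1 of 4 did, against 5.22% of all genes. With DESeq2 in place of edgeR 0 of 4 passed as well, and 27 of all genes. The 1 gene was Lcn2, at 27.3 ± 4.19 CPM in IR+Shh and 81.8 ± 44.2 in IR (SD, n = 2 each), with a log2 difference of -1.58 ± 0.57 (SE; edgeR unadjusted p = 0.0286, adjusted p = 0.903). Wfdc2 differed by 0.73 ± 0.36 (edgeR adjusted p = 0.990) and Wfdc18 by 0.15 ± 0.60 (adjusted p = 1). In 1 of the 4, Wfdc2, the IR+Shh samples were higher without overlap (23.1% of all genes), and in 2, Lcn2 and Ltf, lower (20.9%). For Ltf this rested on 1 and 0 reads in the IR+Shh samples against 3 and 2 in IR, with a log2 difference of -0.94 ± 2.16 (SE). Saa3, with the read counts given above, is left untested here.

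Between IR+Shh and NT, which differ in irradiation and transfer together, 0 of the 4 genes passed by edgeR, against 2.26% of all genes. At an unadjusted p under 0.05, 2 of 4 passed (Wfdc18 and Lcn2), against 20.8%. Wfdc18 differed by -2.44 ± 0.63 (adjusted p = 0.104), Lcn2 by -2.03 ± 0.57 (adjusted p = 0.121) and Ltf by -4.17 ± 1.84 (adjusted p = 0.273). With DESeq2 these 3 of the 4 passed, against 822 of all 14300 genes. In IR against NT 1 of the 4, Wfdc18, passed with DESeq2, against 479 of the 14300. The 3 comparisons share the NT, IR and IR+Shh samples. With 2 samples per group, a value that misses the threshold does not show that the groups were alike. The plot of fitted differences shows the 4 genes.

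**Figure D4:**
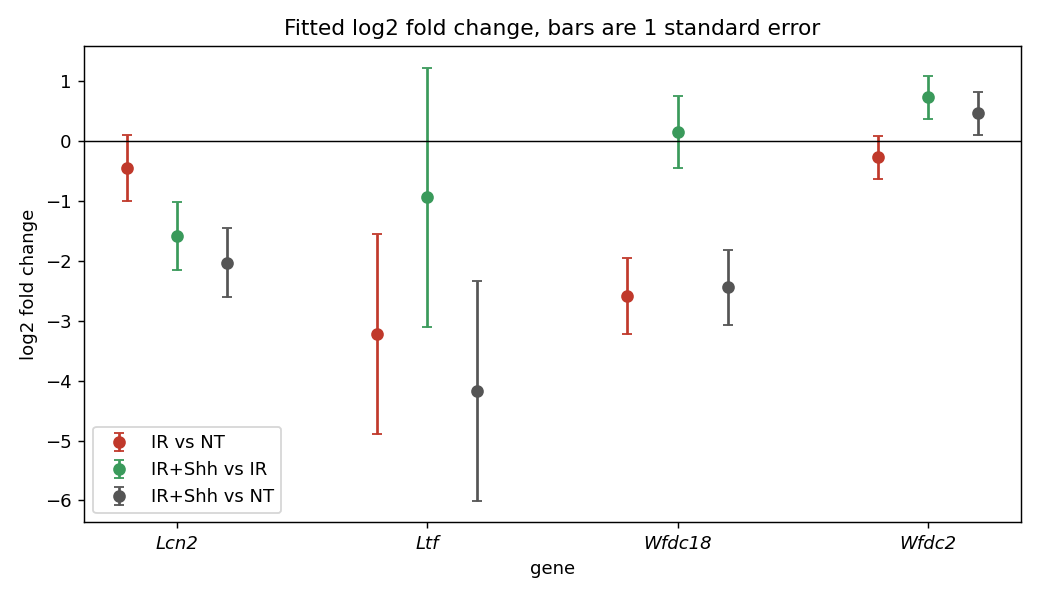
Fitted log2 fold change (points) with 1 standard error (bars) of Lcn2, Ltf, Wfdc18 and Wfdc2 in the 3 comparisons that did not choose the genes, from 2 samples per group. Wfdc18 lies below 0 in both comparisons against NT and Lcn2 in both comparisons of IR+Shh, and none of the points passed an adjusted p of 0.05.

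Across the 8 samples outside IR+Gli1, Lcn2, Ltf, Wfdc18 and Wfdc2 did not all vary together. Ltf had 74 and 18 reads in the NT samples but 0 to 3 in each of the others there. Its r values outside IR+Gli1 therefore mostly set NT against near absence. Wfdc18 and Ltf had a Pearson r of 0.956 on log2(CPM + 0.1) there and 0.955 over all 10 samples. Lcn2 and Ltf had 0.778 (0.959 over all), and Lcn2 and Wfdc18 0.646 (0.884). Wfdc2 went its own way, with r of -0.67 against Lcn2, -0.14 against Ltf and 0.03 against Wfdc18 outside IR+Gli1, where over all samples it had 0.691, 0.822 and 0.729. These are descriptions over few samples that share groups and the NT pair described above.

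Genes of the same families and pathways that were not chosen for their values in IR+GFP and IR+Gli1 can be tested there, and the lists were drawn up with earlier results of these data known. A gene that passed the low-count filter only through IR+Gli1 was favoured by that filter to lie higher there. In the lists below these were Saa1, S100a14, Chit1, Fpr1, Fpr2, Ifng, Il1a, Tnf, Il1r2 and Cd3g. Of the other acute phase plasma proteins, 8 of 24 passed the low-count filter, and 6 of the 8 were higher in IR+Gli1 and 0 lower (5 of 7 leaving out Saa1), with a median log2 difference of 2.99 against 0.01 for all genes (8.23% of all genes were called higher and 5.71% lower). Serpina3n, a protease inhibitor, rose from 0.554 ± 0.000598 CPM to 11.5 ± 3.69 (SD, n = 2; log2 4.21 ± 0.43, edgeR adjusted p = 0.00162). Lrg1, a leucine-rich glycoprotein of plasma, rose by 2.67 ± 0.26 (edgeR adjusted p = 0.00162), and Cp, the copper carrier ceruloplasmin, by 2.32 ± 0.35 (adjusted p = 0.00829).

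Family by family, the relatives of the 10 genes moved to different extents. In the chitinase family, 2 of 4 tested genes (of 8 listed) were higher in IR+Gli1 and 1 lower. Of the 2, Chit1 passed the filter only through IR+Gli1, so that 1 of 3 was higher leaving it out. Chil1, another chitinase-like lectin, was 36.4 ± 29.4 CPM against 0.331 ± 0.227 (log2 6.60 ± 0.79, edgeR adjusted p = 0.00461), and Chid1 fell by 0.43 ± 0.12 (adjusted p = 0.0388), a direction that total-read scaling reverses to 0.34. In the WAP family, 1 of 4 tested genes (of 13) passed, Wfdc17, at 10.2 ± 7.49 against 0.762 ± 0.0527 CPM (log2 3.65 ± 0.56, edgeR adjusted p = 0.00717), and the median of the 4 was -0.03. In the S100 family, 3 of 9 tested genes (of 13) rose: S100a4 by 2.81, S100a10 by 1.34 and S100a6 by 0.74, with a family median of 0.08. In a fit with a term shared by the same-numbered IR+GFP and IR+Gli1 samples (a replicate block), S100a6 did not pass (edgeR adjusted p = 0.0505) and S100a1 passed as lower (log2 -0.83, adjusted p = 0.00432; 0.0539 without the block). Of other mucosal defence proteins, 2 of 12 tested genes (of 22) rose, the chemokine Cxcl17 by 1.08 ± 0.20 and the oxidase maturation factor Duoxa2 by 0.80 ± 0.20 (edgeR adjusted p = 0.0102 and 0.0308).

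Genes of a joint list of FAT10, ISG15 and immunoproteasome genes were higher as well. Of the genes for conjugation of FAT10 and the related modifier ISG15 and for the immunoproteasome, 8 of 12 rose in IR+Gli1 and 0 fell, with a median log2 difference of 3.01. Uba7, the activating enzyme for ISG15, rose from 5.42 ± 0.0712 to 31.0 ± 12.2 CPM (log2 2.51 ± 0.26, edgeR adjusted p = 0.00207). The immunoproteasome subunits Psmb9 and Psmb8 rose by 3.88 ± 0.41 and 3.39 ± 0.40, and Ube2l6, the conjugating enzyme for ISG15, by 3.44 ± 0.41. The genes named here are those of ISG15 conjugation and of the immunoproteasome, so they do not show a rise of FAT10 conjugation itself.

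Among the signals that induce such genes, 1 of 5 tested cytokines (of 10 listed) passed: Tnf, tumour necrosis factor, at 2.53 ± 2.02 CPM in IR+Gli1 and 0.104 ± 0.0267 in IR+GFP (log2 3.93 ± 0.63, edgeR adjusted p = 0.00642). Tnf, Ifng and Il1a passed the filter only through IR+Gli1, and 0 of the other 2 were called. Il17a and Il22 had 0 reads in all samples, and Il6 had 20 reads in the merged IR+Gli1 pair and 0 in the other IR+Gli1 sample; these 3 were named after their values were seen. Of cytokine receptors, transcription factors and feedback genes, 11 of 21 tested rose and 0 fell, with a median of 0.78. Nfkbia, an NF-kB inhibitor that NF-kB induces, rose by 1.58 ± 0.12 (edgeR adjusted p = 0.0013), the NF-kB subunit Relb by 1.63 ± 0.23 and Osmr, the oncostatin M receptor, by 1.92 ± 0.27. Of receptors for the secreted proteins, Tlr2 rose by 1.95 ± 0.50 and Scarb1 fell by 0.40 ± 0.11, the latter reversed to 0.39 by total-read scaling, and 9 of 11 did not pass (with the replicate block Fpr2, a formyl peptide receptor that passed the filter only through IR+Gli1, was called higher too, edgeR adjusted p = 0.0237 against 0.0502). Without the merged IR+GFP pair, 33 of the 43 genes named from the lists, cell markers included, lost the edgeR threshold, and 10 kept it in every alternative tried. In IR against NT, 0 of the 86 tested genes of these family and pathway lists passed by edgeR. At an unadjusted p under 0.05, 13 of the 86 did, against 17.5% of all genes, and by DESeq2 7 did, against 479 of the 14300. In IR+Shh against IR 0 of the 86 passed by edgeR, 11 at an unadjusted p under 0.05 against 5.22% of all genes, and 1 by DESeq2 against 27 of the 14300.

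Markers of other cells moved with IR+Gli1 as well, as the plot of marker sums shows. The 15 neutrophil markers summed to 10.4 and 3.95 CPM in the IR+Gli1 samples and 1.41 to 3.19 in the other 8, and 1 of 3 tested rose, Csf3r (log2 2.99 ± 0.52, edgeR adjusted p = 0.00858). The defining marker Ly6g was at 0 reads in all 10 samples, as was Ctsg, and Cxcr2 had 4 and 3 reads in the IR+Gli1 samples. Monocyte and macrophage markers summed to 439 and 358 CPM against 143 to 244, with 10 of 15 higher, and T and NK cell markers to 76.3 and 31.6 against 1.84 to 11.1, with 4 of 7 tested higher. The 8 B and plasma cell markers summed to 0.504 and 0.830 CPM in IR+Gli1, within the 0.469 to 3.28 of the other 8 samples, and the 1 tested did not pass. Their part in the levels of the 10 genes was not tested.

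Markers of the gland's own cells were high in all 10 samples, and they differed in IR+Gli1 too. Duct epithelium markers summed to 1992 and 1676 CPM in IR+Gli1 against 1364 to 1466 elsewhere, with 3 of 12 higher (Elf3, Krt8 and Krt5). Markers of the granular convoluted tubule, the hormone-storing duct segment of male mice, summed to 30840 and 65450 CPM against 95951 to 217543, with 6 of 8 lower. Acinar markers summed to 84577 and 181663 CPM against 204949 to 380819, with 3 of 8 lower. In these lists, as for the 10 genes, the merged IR+Gli1 pair lay farther from the other groups than IR+Gli1 library 3.

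**Figure D5:**
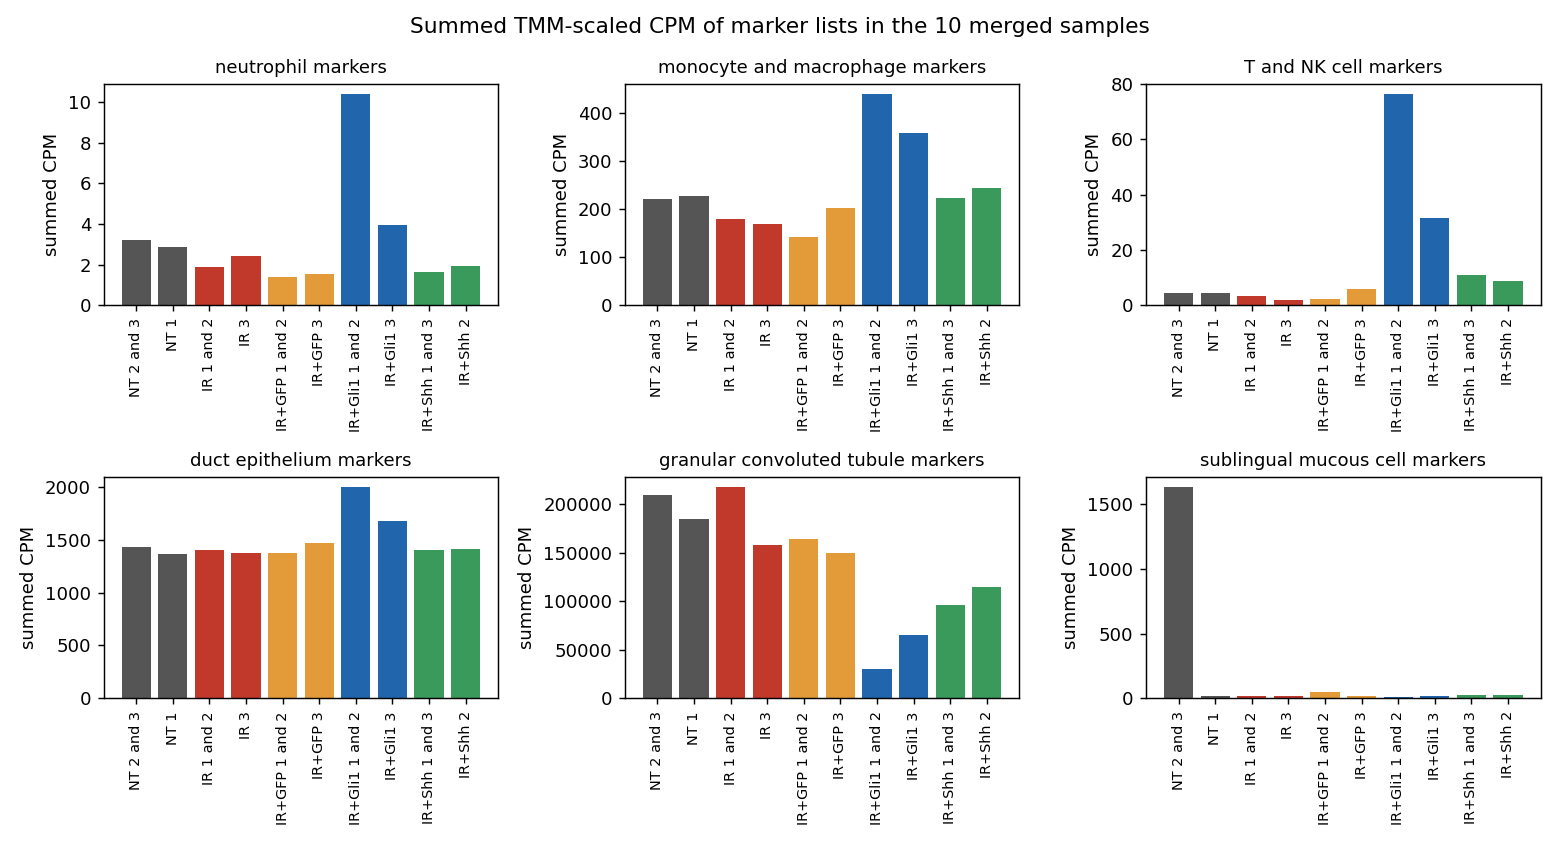
Summed TMM-scaled CPM of 6 lists of cell markers in each of the 10 samples (bars, from 0; each panel has its own scale). Neutrophil, monocyte and macrophage, T and NK cell and duct marker sums are highest in the 2 IR+Gli1 samples, granular convoluted tubule sums are lowest there, and sublingual mucous markers stand out in the merged NT pair at 1631 CPM.

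The genes whose pattern over the 10 samples was most like the mean pattern of the 10 were Clu (Pearson r = 0.989), H2-M3 (0.988), Timp1 (0.987), Ifi35 (0.986), Ctsz (0.986), Psme2 (0.983), Dhx58 (0.983) and Uba7 (0.982), out of 10493 candidates of at least 2 CPM on average. Clu, which encodes the secreted chaperone clusterin, stood at 347 to 993 CPM in IR+Gli1 and at most 41.3 elsewhere, and Timp1, an inhibitor of matrix metalloproteases, at 4.70 to 10.3 against at most 1.32. An r of 0.9 or more was reached by 406 candidates. The choice of the 10 genes fixed their pattern as high in IR+Gli1, and r included those samples, so it favours any gene that was higher there.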

How the data were processed

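RNA of 15 submandibular gland libraries was counted by the authors. What they deposited are raw counts, 1 table per library with 1 line per Ensembl gene. Per the submitters' processing notes, the tools were HTSeq 0.10.0, TopHat2 2.0.13, DESeq2 and Bowtie 0.12.2, with builds mm10 and GRCm38. The roles of these tools, the strand mode and the annotation release are not given in the sources used here. The closing lines of each table, reads given to no gene (6.98% to 13.9% of reads), were left out, and a line among them holds the multiply aligned reads, which no gene received.

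Symbols came from GENCODE vM21 (96.0% of 39179 genes). The exons of 9 of the 10 genes overlap no other gene there, and those of Slpi share 1 base with Mir7678. Libraries of a group with a mean chi-square per gene under 1 (among genes whose reads in the pair summed to 20 or more) were merged by the rounded mean of their counts, giving 10 samples. A single edgeR 4.0.16 quasi-likelihood model (R 4.3.3, TMM, filterByExpr, prior count 2, 14300 genes, 5 residual degrees of freedom) covered all 5 groups, with Benjamini-Hochberg adjustment over all genes in each comparison and a threshold of 0.05. CPM used TMM-scaled library sizes. Counting intervals are exact at 95%, and the floor was 3 reads over a group. On counts simulated for IR+Shh against IR over 13759 genes, 64% of 2-fold and 92% of 4-fold changes were recovered, and 7.14% of calls were false. The changed genes had a mean of at least 1 CPM over NT, IR and IR+Shh, and the simulated spread was the fit's own. These rates therefore do not cover genes as low as Ltf or a spread that differs from the fitted one.

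The members and lists were chosen with earlier results of these data known. All 10 genes are named, as are up to 4 passing genes per list with the smallest adjusted p and the 8 genes most alike in pattern. Same-numbered IR+GFP and IR+Gli1 libraries deviated together from their group means (correlations of 0.463 to 0.489 in 3 pairs). Libraries 1 and 2 were near-identical in both groups and were merged, so these values reflect 1 contrast, library 3 against the others. Library 3 of IR+GFP and of IR+Gli1 also held more reads with several alignments, 8.22% and 7.53%. The replicate block for these groups thus sets library 3 of both apart from the other samples. No label gives a pairing, and whether library 3 differs by pairing or by technical handling was not tested. The other 27 same-numbered pairs had correlations of -0.106 to 0.097. Alternatives were other normalizations, no filter, DESeq2 1.42.0, unmerged libraries, a replicate block and left-out samples.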

Additional observations from a re-analysis of the deposited data

How the results depend on the processing

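Without the low-count filter, with DESeq2, and with 15 separate libraries, more genes passed than the reported counts. For the 10 genes, counting also those with reads almost only in IR+Gli1 (such as Saa3), IR against NT gave 2, 1 and 2 (0 reported), IR+Shh against IR gave 2, 0 and 2 (0 reported), and IR+Shh against NT gave 5, 4 and 4 (0 reported). For all genes these settings gave 1242, 479 and 4154 in IR against NT (97 reported), 298, 27 and 654 in IR+Shh against IR (0 reported) and 1663, 822 and 4447 in IR+Shh against NT (323 reported); the unmerged libraries count near-identical pairs as separate, and the cause was not tested for the others. Leaving out IR+GFP library 3 and IR+Gli1 library 3 together gave 311, 6 and 757 genes. A fit of NT, IR and IR+Shh alone, chosen after seeing the data, gave 354, 6 and 799 genes and 1 of the 10 genes in IR+Shh against NT. That gene was Ltf, with an edgeR adjusted p of 0.0477 (0.273 reported). Those of Wfdc18, Lcn2 and Wfdc2 were 0.204, 0.151 and 0.461 (0.104, 0.121 and 0.529 reported). Scaling by total reads gave 1 gene in IR+Shh against IR.

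A replicate block shared by IR+GFP and IR+Gli1, chosen after seeing the data, gave 1360 genes higher and 1052 lower in IR+Gli1 against IR+GFP (1177 and 816 reported) and a median of 6.52 for the chosen genes. Of the 43 named list genes only S100a6 lost the threshold under it, and S100a1, Klrb1c, Hp, Csf1r, Fpr2 and Acta1, list genes that had not passed, passed; it changed no other call in the lists. In the 3 comparisons that use neither group the numbers did not pair the samples, and the best correlation was with the library's own number in 6 of 15 cases over all groups. With the replicate block on 15 separate libraries, 2, 1 and 4 of the 10 genes and 4048, 499 and 4340 of all genes passed in the 3 comparisons, and Lcn2 passed in IR+Shh against IR (adjusted p = 0.0424 by edgeR; 0.0229 with 15 libraries and no block).

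The median difference of the genes was 6.45 between IR+Gli1 and IR+GFP, and 7.10 by total reads, 5.67 without the filter and 9.35 with DESeq2. Between IR+Shh and IR+GFP it was 0.55 by total reads and 0.77 with DESeq2 (0.41 reported), between IR+Shh and IR+Gli1 -6.49 and -7.29 (-5.82 reported). Between IR+GFP and IR it was -0.31 without the filter, -0.49 with DESeq2 and -0.35 with the deeper library of each pair (-0.26 reported).

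Leaving out 1 sample at a time, with the lone sample assumed to vary like the other groups, gave 0 to 1 of the 10 genes and 9 to 538 of all genes in IR against NT, 0 to 0 and 0 to 1 in IR+Shh against IR, and 0 to 1 and 13 to 815 in IR+Shh against NT. The medians ran from 5.24 to 6.36 (IR+Gli1 against IR+GFP), 0 to 0.49 (IR+Shh against IR+GFP), -6.04 to -4.67 (IR+Shh against IR+Gli1) and -0.39 to -0.20 (IR+GFP against IR). Directions reversed in IR against NT for Lcn2, to 0.12 without the merged NT pair and 0.015 without IR library 3 (range -1.15 to 0.12), and for Wfdc2, to 0.12 without the merged IR pair (range -0.80 to 0.12). Wfdc18 in IR+Shh against IR turned to -0.19 without the merged IR+Shh pair (range -0.19 to 0.43). By total reads, Chid1 turned to 0.34, Scarb1 to 0.39 and Slc12a2, an acinar ion transporter, to 0.036 in IR+Gli1 against IR+GFP. Of 817 recomputed values of 43 named list genes, 707 stayed on their side of the threshold, 107 lost it and 3 reversed. Most losses came from left-out samples: 33 of the 43 genes lost it without the merged IR+GFP pair, 14 without IR+GFP library 3 and 13 without the merged IR+Gli1 pair. The threshold was kept in every alternative by 10 genes. With total-read scaling, 9660 genes were higher and 89 lower in IR+Gli1 than in IR+GFP, where 1177 and 816 were reported.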

Other observations

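Wfdc12, a WAP family gene outside the set described, did not follow the groups and was noticed after its values were seen. It stood at 1768 CPM in IR+GFP library 3 and 1655 in IR+Gli1 library 3, and at 4.07 CPM or less in the other 8 samples. Both of these libraries also held the most reads with several alignments. In all, 37 genes had at least 2 CPM in both and more than 20 times the highest other sample, among them Lars2 (3201 and 1901 CPM, against at most 16.8) and Gm42418 (3018 and 1969 CPM, against 0). None of the 10 genes is among the 37.

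In IR+Shh against NT, 4 of the 86 tested list genes passed by edgeR, against 2.26% of all genes. They were 1 of 11 receptors of the secreted proteins, 1 of 5 inducing cytokines, 1 of 21 signalling genes and 1 of 4 chitinase family genes: Slc22a17, a receptor for lipocalin 2, rose by 0.68 ± 0.14 (SE; adjusted p = 0.0424), the cytokine Lif by 2.69 ± 0.57 (adjusted p = 0.0461) and Relb by 1.61 ± 0.24 (adjusted p = 0.0128). Chid1 fell by 0.59 ± 0.12 (adjusted p = 0.0376). The ligand Lcn2 did not pass in that comparison. IR+Shh and NT differ in irradiation and transfer together. Slc22a17, Lif, Relb and Chid1 differed in the same direction in IR against NT, without transfer, where none passed by edgeR. The log2 differences there were 0.62 ± 0.14 (adjusted p = 0.0829) for Slc22a17 and 2.85 ± 0.57 (adjusted p = 0.0620) for Lif. They were 0.94 ± 0.24 (adjusted p = 0.108) for Relb and -0.25 ± 0.11 (adjusted p = 0.305) for Chid1. In IR+Shh against IR, 0 of the 86 passed.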
